A study of Mus musculus with 6 samples.

Results

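Tyrosine phosphatases and PIAS proteins are brakes on JAK-STAT signalling that carry no SOCS box. This report describes the mRNA of 10 such genes, Ptpn1, Ptpn2, Ptpn6, Ptpn11, Ptpn22, Ptprc, Pias1, Pias2, Pias3 and Pias4, in Th9 cultures with and without Cul5, the scaffold of a ubiquitin ligase that SOCS-box proteins join. The genes were chosen by name, and all 10 were found among the 11242 entries of the deposited gene-level table and among the 12925 genes that passed the filter on low counts, of 22400 genes with a count. None was chosen by its measured value, although results from these data were known when the group was drawn up.

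A cytokine receptor activates JAK kinases, which phosphorylate the receptor and the STAT factors that bind it, and the signal lasts until phosphatases remove the phosphate or other inhibitors stop it. PTP1B (Ptpn1), TC-PTP (Ptpn2), SHP-1 (Ptpn6), SHP-2 (Ptpn11), PEP (Ptpn22) and CD45 (Ptprc) are classical tyrosine phosphatases, and in T cells several of them also act on the Src and Syk family kinases downstream of the T cell receptor. The PIAS proteins act later, in the nucleus, where they bind STAT factors and many other transcription factors and serve as SUMO E3 ligases.

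Naive CD4+ T cells of C57BL/6 mice aged 8 to 10 weeks, labelled as spleen (the study's methods name lymph nodes as well), were cultured for 48 h with anti-CD3, anti-CD28, IL-4, TGF-β and anti-IFN-γ, which polarize them towards Th9 cells. The WT mice carried the floxed Cul5 allele without Cre, and the Cul5 cKO mice carried the same allele (Cul5 fl/fl) with CD4-Cre, which deletes exons 9 to 11 in T cells, CD8+ as well as CD4+. The Cre transgene was therefore present in the Cul5 cKO group only. RNA of 3 samples of each genotype was sequenced, and the labels do not say whether the samples came from separate mice, so p-values measure the spread between these samples, which may be technical. Cul5 itself was at 64.4, 69.3 and 65.0 CPM, or counts scaled to a common library size, in WT and at 10.6, 14.2 and 13.1 CPM in Cul5 cKO, a log2 fold change of -2.39 (SE 0.11, edgeR adjusted p = 0.000992).

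Library totals were 23111689 to 23454552 counts in 5 libraries and 3944803 in WT replicate 3, where 3 counts equal 0.759 CPM. Replicate 1 of both genotypes stood apart from replicates 2 and 3, and values within replicates 2 and 3 are given where they bear on a member or on a call. The labels name no batch, and this split was seen in these same data. Calls in replicates 2 and 3 alone, or with replicate 1 as a term, therefore describe these samples only. The CD4 T cell markers Cd4, Cd3d, Cd3e, Cd3g, Cd28, Trac and Lat were all detected and together amounted to 1471 to 1649 CPM in WT and 1419 to 1530 CPM in Cul5 cKO. The summed level of 6 B cell markers was 82.0 to 113 CPM in WT and 35.5 to 121 CPM in Cul5 cKO, with the highest value in Cul5 cKO replicate 3. The sum of 6 myeloid markers was 2.09 to 6.84 CPM in WT and 1.13 to 15.2 CPM in Cul5 cKO, with the highest value in Cul5 cKO replicate 2. The sum of 6 CD8 and NK cell markers was 10.5 to 16.5 and 10.3 to 22.3 CPM, with Ncr1 at 0 in every sample, and that of 6 erythroid markers was 0 to 0.897 and 1.07 to 2.67 CPM. The part of these other cells in the results was not tested, and in bulk RNA fewer cells of a type cannot be told apart from less RNA per cell.

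The classical phosphatases share a catalytic loop built around a cysteine that takes up the phosphate, and its coding sequence is shown because it is what these members have in common as enzymes. The 24 bases that encode the loop in the most abundant coding transcript of 5 of the 6 phosphatases are given from 5′ to 3′ (GRCm38), with the codon of the catalytic cysteine in capitals. The loop of Ptpn2 was not examined.
Ptpn1: cacTGCagcgccggcatcgggagg
Ptpn6: catTGCagcgctggcatcggccgc
Ptpn11: cacTGCagcgctgggattggccgg
Ptpn22: cacTGCagtgccggctgcggaagg
Ptprc: cacTGCagtgctggtgttgggcgt
In Ptpn1 the loop lies within exon 6 of 9, at chr2:167974207-167974230 on the plus strand. In Ptpn6, Ptpn11, Ptpn22 and Ptprc an intron interrupts it, between exons 11 and 12 of 16, 11 and 12 of 16, 8 and 9 of 21, and 21 and 22 of 30. The cysteine is codon 215 of 432 in Ptpn1, 453 of 595 in Ptpn6, 459 of 593 in Ptpn11, 227 of 802 in Ptpn22 and 703 of 1154 in the Ptprc transcript used. Across all 5 genes 14 of the 24 bases were identical, and pairs shared 16 to 20 of them, with 20 between Ptpn6 and Ptpn11, which both carry a pair of SH2 domains, and 20 between Ptpn1 and Ptpn22.

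The order of the levels is given in TPM, which scales each transcript to its length. A gene's TPM sums all its transcripts, also those not annotated as protein coding. In WT, coding transcripts held 47.8% of Pias4 TPM and 50.4% of Ptpn22 TPM, against 98.7% for Pias1 and 100% for Ptpn2. The order by coding transcripts alone was not examined and may differ for these genes. In WT the highest was Ptprc with 278 ± 76.7 TPM (SD, n = 3 here and below), followed by Ptpn1 with 154 ± 14.5, Ptpn6 with 127 ± 17.6, Ptpn22 with 81.7 ± 20.8 and Ptpn2 with 55.4 ± 4.78 TPM. The surface phosphatase CD45 thus led the group, above the phosphatases of the cytoplasm and the endoplasmic reticulum. Ptpn11 had 41.9 ± 3.27 TPM and was followed by the PIAS genes, Pias2 with 41.2 ± 4.82, Pias4 with 34.0 ± 4.78, Pias1 with 27.3 ± 3.14 and Pias3 with 15.02 ± 1.89 TPM. The WT samples of Ptpn11 and Pias2 overlapped, as did those of Pias4 and Pias1, and the samples of the other 7 neighbouring pairs did not overlap in WT. Among the genes tested, the mean TPM of the members lay between the 43.7th percentile for Pias3 and the 95.9th for Ptprc. In Cul5 cKO, Pias4 (32.6 ± 1.17 TPM) and Pias1 (19.6 ± 1.40 TPM) no longer overlapped, while Ptpn22 (54.3 ± 7.30) overlapped with Ptpn2 (61.4 ± 0.302) and Ptpn1 (138 ± 7.58) with Ptpn6 (125 ± 25.7).

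**Figure D1:**
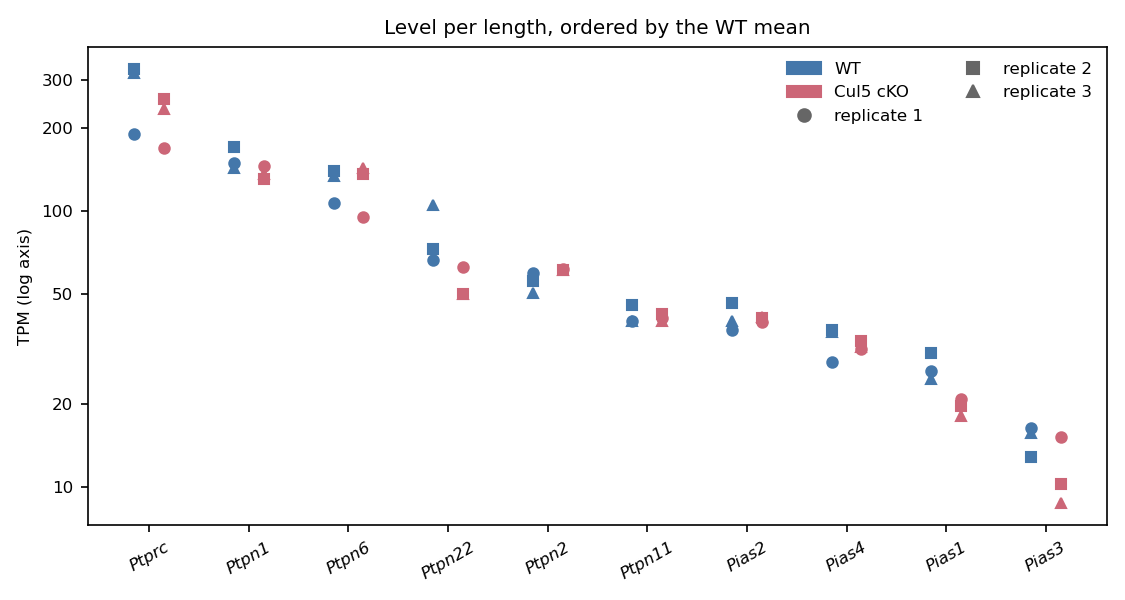
The vertical axis is the level in TPM on a log scale and each point is 1 sample, coloured by genotype and shaped by replicate number, with genes ordered by their WT mean. Ptprc is highest and Pias3 lowest, and replicate 1 of both genotypes lies below replicates 2 and 3 for Ptprc and Ptpn6 and is the highest of its group for Pias3.

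None of the 10 genes was called between Cul5 cKO and WT. The test was edgeR's quasi-likelihood test, with a call at a Benjamini-Hochberg adjusted p under 0.05 across all 12925 genes, of which 1.03% were called. At an unadjusted p under 0.05, 1 member was higher (Ptpn2) and 2 were lower (Ptpn22 and Pias1), and 21.3% of all genes passed that mark, 10.9% higher and 10.4% lower. In 5 of the 10 genes the 3 Cul5 cKO samples did not overlap the 3 WT samples, with Ptpn2 and Pias4 above and Ptpn1, Ptpn22 and Pias1 below, beside 27.5% of all genes tested (14% above and 13.5% below). The median log2 fold change was -0.07 over the members, of which 3 were on the higher side and 7 on the lower, and -0.01 over all genes. The median size of the log2 fold change was 0.14 over the members and 0.17 over all genes. Among the deposited gene-level values, 3 of the 10 genes did not overlap, Ptpn2 above and Ptpn22 and Pias1 below, beside 23.5% of all entries (11.7% above and 11.8% below). The exact two-sided permutation test over samples gave 0.1, the smallest value that 3 against 3 samples allow, for each of the 5 genes whose samples did not overlap.

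**Figure D2:**
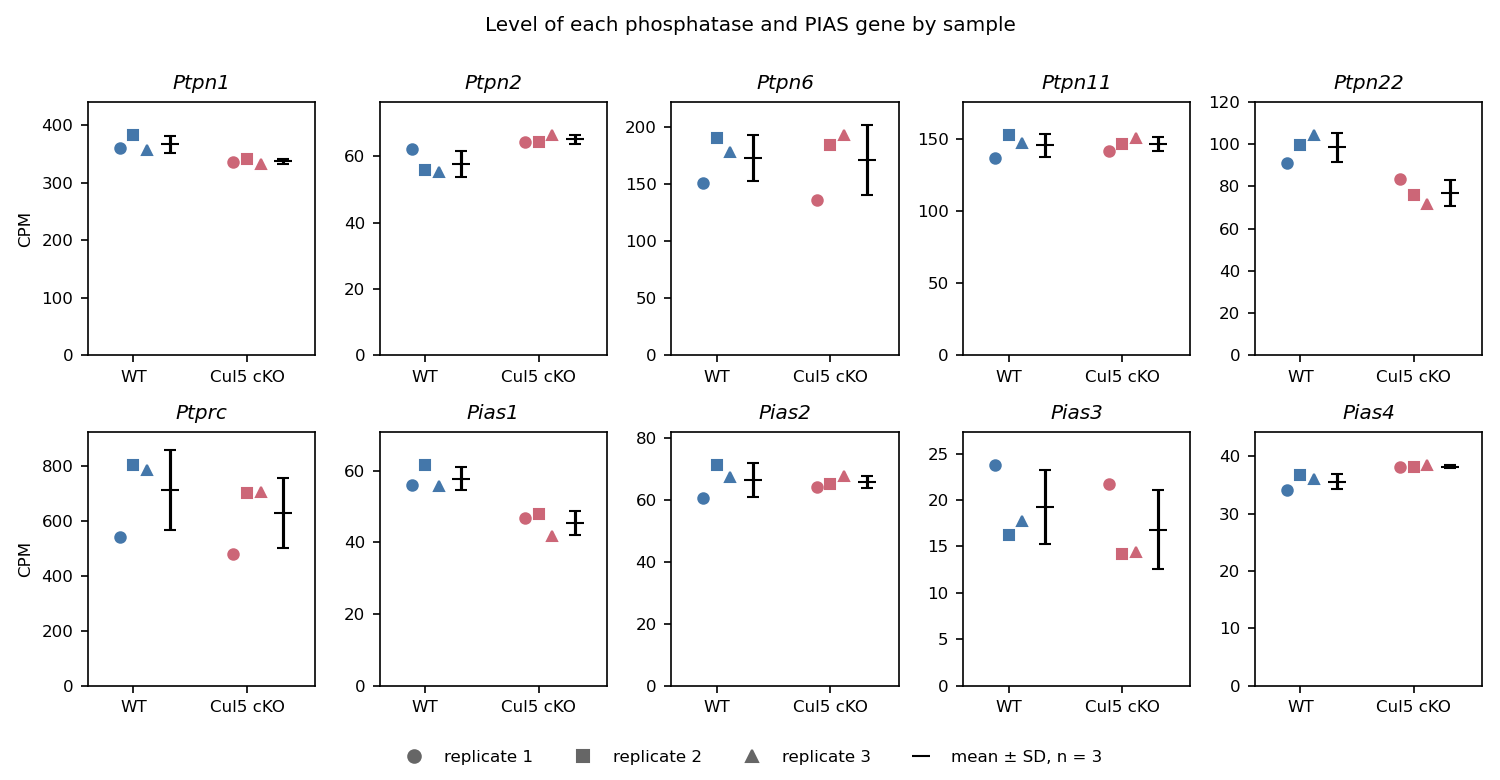
Each panel shows 1 gene, with CPM on a vertical axis that starts at 0, 1 point for each sample and the mean ± SD of 3 samples beside the points. The Cul5 cKO samples lie below every WT sample for Ptpn1, Ptpn22 and Pias1, lie above every WT sample for Ptpn2 and Pias4, and overlap with WT in the other 5 panels.

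PTP1B and TC-PTP are close relatives that remove phosphate from different JAK kinases, PTP1B from JAK2 and TYK2 at the endoplasmic reticulum and TC-PTP from JAK1, JAK3 and nuclear STAT factors. Ptpn1 (ENSMUSG00000027540, chr2:167932057-167979385) was at 359, 383 and 357 CPM in WT and at 336, 342 and 333 CPM in Cul5 cKO. All Cul5 cKO samples were below all WT samples, by a small margin. The log2 fold change was -0.12 (SE 0.06, 95% interval -0.25 to 0.01, edgeR adjusted p = 0.263). In TPM the groups of Ptpn1 overlapped, with 146 in Cul5 cKO replicate 1 and 143 in WT replicate 3. They also overlapped in the deposited gene-level table, with 8.56 and 8.55 log2 CPM in the same 2 samples. Ptpn2 (ENSMUSG00000024539, chr18:67665511-67724595) was at 62.3, 55.9 and 55.2 CPM in WT and at 64.4, 64.4 and 66.5 CPM in Cul5 cKO. Every Cul5 cKO sample was above every WT sample, and WT replicate 1 came within a few CPM of them. The log2 fold change was 0.17 (SE 0.07, 95% interval 0.00 to 0.33, edgeR adjusted p = 0.232), and it was 0.24 in replicates 2 and 3 alone (adjusted p = 0.0665).

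Since Ptpn1 and Ptpn2 lay on opposite sides, their ratio was taken within each library, where it does not depend on the scaling between libraries. This ratio was examined after the values of the genes were known, together with that of Ptpn6 to Ptpn11. The ratio of Ptpn2 to Ptpn1 in CPM was 0.173, 0.146 and 0.155 in WT and 0.191, 0.188 and 0.2 in Cul5 cKO. Every Cul5 cKO library had a higher ratio than every WT library, with a mean log2 difference of 0.29 in CPM and 0.31 in TPM. As neither gene's samples overlapped between the genotypes in CPM, in opposite directions, the order in CPM followed from the values above and was not tested. Ptpn1 nevertheless stayed the more abundant of the pair per length in every sample, with at least 131 TPM against at most 61.7 TPM for Ptpn2. For Ptpn6 to Ptpn11 the ratio was 1.10, 1.24 and 1.21 in WT and 0.961, 1.25 and 1.28 in Cul5 cKO, with the lowest value in replicate 1 of both genotypes and the groups overlapping.

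**Figure D3:**
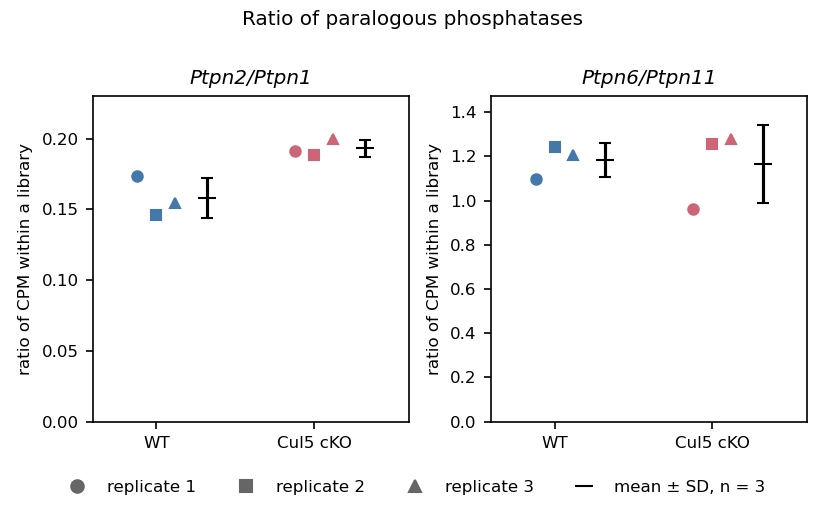
The vertical axes, which start at 0, give the ratio of CPM of paralogous phosphatases within a library, with 1 point for each library and the mean ± SD of 3. The Ptpn2 to Ptpn1 ratio is 0.146 to 0.173 in WT and 0.188 to 0.2 in Cul5 cKO, and the Ptpn6 to Ptpn11 ratios of the genotypes overlap.

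SHP-1 and SHP-2 dock through their SH2 domains on phosphorylated receptors, SHP-1 as an inhibitor recruited by ITIM motifs and SHP-2 also as a positive factor for Ras and ERK signalling. Ptpn6 (ENSMUSG00000004266, chr6:124720707-124738714) was at 150, 190 and 177 CPM in WT and at 136, 184 and 193 CPM in Cul5 cKO. The groups overlapped, and replicate 1 was the lowest of both, at 0.818 of the mean of replicates 2 and 3 in WT and 0.72 in Cul5 cKO. The log2 fold change was -0.01 (SE 0.15, 95% interval -0.36 to 0.33, edgeR adjusted p = 0.972), and it took the other sign in replicates 2 and 3 alone (0.03). Ptpn11 (ENSMUSG00000043733, chr5:121130533-121191397) was at 137, 153 and 147 CPM in WT and at 141, 147 and 151 CPM in Cul5 cKO. All Cul5 cKO samples lay within the range of WT. Ptpn11 had a log2 fold change of 0.01 (SE 0.07, 95% interval -0.15 to 0.16, edgeR adjusted p = 0.971). The Ptpn6 exons share 203 identical bases with the overlapping antisense gene Gm20531, which is not among the transcripts counted, and as a stranded protocol is not given in the sources used here, its reads could not be told apart from those of Ptpn6.

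CD45 and PEP set the activity of Lck from opposite sides, since CD45 removes the phosphate of its inhibitory tyrosine and PEP that of its activating tyrosine. Ptpn22 (ENSMUSG00000027843, chr3:103859795-103912247) was at 91.2, 99.8 and 104.5 CPM in WT and at 83.4, 75.9 and 71.4 CPM in Cul5 cKO. Every Cul5 cKO sample was below every WT sample, and the genotypes were closest in replicate 1. Ptpn22 had a log2 fold change of -0.35 (SE 0.08, 95% interval -0.55 to -0.15), or a change of -21.7%. It did not pass the adjustment over all genes (edgeR unadjusted p = 0.00377, adjusted p = 0.0991). It passed by DESeq2 (adjusted p = 0.0252), which called 6.09% of its genes, and by edgeR in replicates 2 and 3 alone (log2 fold change -0.46, adjusted p = 0.0193), which called 8.83%. In the deposited gene-level table the difference was -0.50 on the log2 scale (limma adjusted p = 0.205). WT replicate 3, the shallowest library, was the highest there, at 7.01 log2 CPM against 6.53 and 6.66 in WT replicates 1 and 2. It was also the highest in TPM, at 105.5 against 66.7 and 73.0.

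Ptprc (ENSMUSG00000026395, chr1:138062861-138175708) was at 544, 804 and 787 CPM in WT and at 481, 702 and 706 CPM in Cul5 cKO. The genotypes overlapped, and replicate 1 was the lowest of both, at 0.683 of the mean of replicates 2 and 3 in WT and in Cul5 cKO alike. Ptprc had a log2 fold change of -0.18 (SE 0.19, 95% interval -0.63 to 0.27, edgeR adjusted p = 0.638). Within replicates 2 and 3 alone it was -0.17 (edgeR adjusted p = 0.0932), and the ratio of the replicate 1 samples, Cul5 cKO to WT, was 0.884. With replicate 1 against the others as a term in the model, Ptprc was called (log2 fold change -0.18, edgeR adjusted p = 0.0432), in a fit that called 13.1% of all genes. That term follows the split seen in these same data. Leaving out Cul5 cKO replicate 1 gave -0.01, leaving out WT replicate 1 gave -0.34, and the gene-level table gave -0.30 (limma adjusted p = 0.541).

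**Figure D4:**
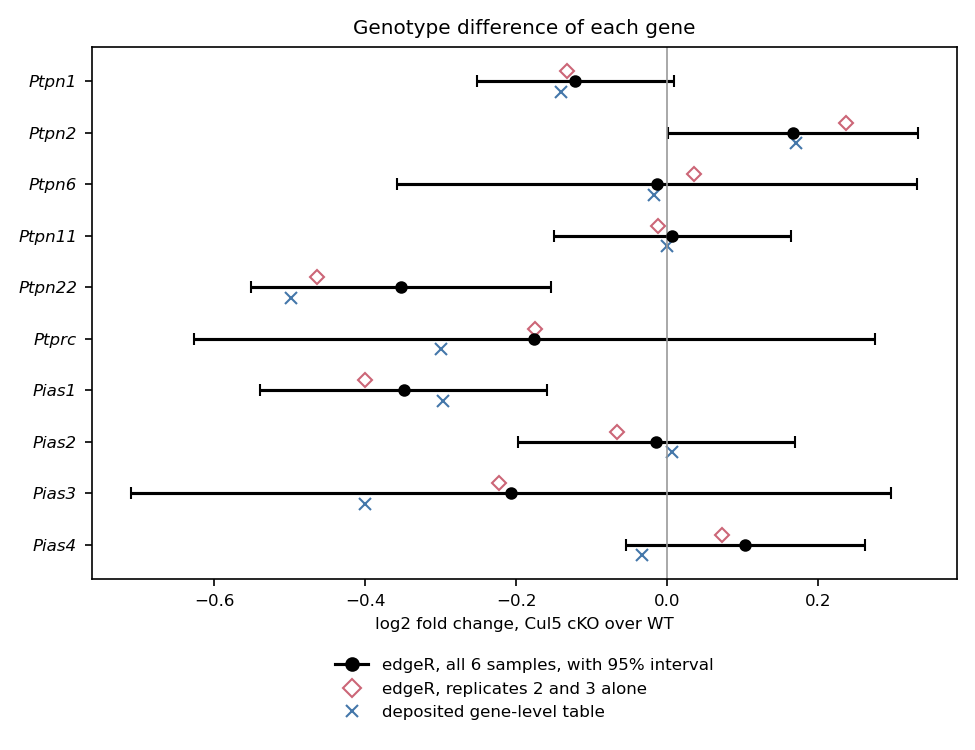
The horizontal axis is the log2 fold change of Cul5 cKO over WT, with the edgeR estimate and its 95% interval as a filled point and bar, the estimate from replicates 2 and 3 alone as an open diamond and the difference in the deposited gene-level table as a cross. The intervals of Ptpn22 (-0.55 to -0.15) and Pias1 (-0.54 to -0.16) lie below 0, that of Ptpn2 begins at 0.00, and the other 7 include 0.

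The PIAS genes encode SUMO E3 ligases that share a zinc-binding RING-like domain, of which PIAS3 is best known for blocking STAT3 and the Pias2 product PIASx for STAT4. Pias1 (ENSMUSG00000032405, chr9:62878368-62987924) was at 56.1, 61.6 and 55.7 CPM in WT and at 46.9, 47.9 and 41.7 CPM in Cul5 cKO. Every Cul5 cKO sample was below every WT sample, in replicate 1 as well as in replicates 2 and 3. The log2 fold change was -0.35 (SE 0.08, 95% interval -0.54 to -0.16), with an edgeR unadjusted p of 0.00311 and an adjusted p of 0.0928 over all genes. It passed by DESeq2 (adjusted p = 0.0423) and with replicate 1 against the others as a term (edgeR adjusted p = 0.0274), and in replicates 2 and 3 alone it was -0.40 (edgeR adjusted p = 0.0532). In the deposited gene-level table the difference was -0.30 (limma adjusted p = 0.263). Without Cul5 cKO replicate 2, the library with the most myeloid markers, the log2 fold changes of Pias1 and Ptpn22 were -0.38 and -0.34, and without Cul5 cKO replicate 3, that with the most B cell markers, they were -0.29 and -0.30, none of them called. Pias1 lies on chromosome 9, as Cul5 does, 9.21 Mb away, and the floxed allele was carried by both genotypes. Whether this position bears on the level of Pias1 was not tested.

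Pias2 (ENSMUSG00000025423, chr18:77065208-77153800) was at 60.6, 71.4 and 67.6 CPM in WT and at 64.2, 65.2 and 68.0 CPM in Cul5 cKO. The Cul5 cKO samples all lay within the range of WT, with a log2 fold change of -0.01 (SE 0.08, 95% interval -0.20 to 0.17, edgeR adjusted p = 0.942). Pias4 (ENSMUSG00000004934, chr10:81153266-81167923), whose product PIASy is a partner of SMAD factors, was at 34.1, 36.7 and 35.9 CPM in WT and at 38.0, 38.0 and 38.5 CPM in Cul5 cKO. Its Cul5 cKO samples were all above WT in counts, with a log2 fold change of 0.10 (SE 0.07, 95% interval -0.06 to 0.26, edgeR adjusted p = 0.422). The sign differed between settings, and the deposited gene-level table gave -0.03 with overlapping groups (limma adjusted p = 0.906).

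Pias3 (ENSMUSG00000028101, chr3:96696384-96706070), the least abundant member, was at 23.8, 16.2 and 17.7 CPM in WT and at 21.7, 14.2 and 14.5 CPM in Cul5 cKO. Replicate 1 was the highest of both genotypes, at 1.40 times the mean of replicates 2 and 3 in WT and 1.51 times in Cul5 cKO, opposite to Ptprc and Ptpn6. The log2 fold change was -0.21 (SE 0.22, 95% interval -0.71 to 0.30, edgeR adjusted p = 0.618), and without WT replicate 1 it was 0.00. In the deposited gene-level table the difference was -0.40 (limma adjusted p = 0.405). The interval was the widest of the 10. Pias3 had 70 counts in WT replicate 3, the fewest of any member in any library.

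The members are annotated with 71 transcripts in the files, of which 30 held at least 5% of their gene's TPM on average, and the transcript shares are kallisto's estimates from single-end reads of 50 bases. In 2 of the 30 the Cul5 cKO samples did not overlap WT, beside 11.1% of all transcripts with such a share in the genes tested that have more than 1 transcript. Ptpn22-204, annotated as a target of nonsense-mediated decay, held 9.12%, 8.61% and 9.12% of Ptpn22 TPM in WT and 8.02%, 5.51% and 6.55% in Cul5 cKO. Pias1-201, the longest coding transcript of Pias1 above that mark, held 44.1%, 42.5% and 42.2% in WT and 48.6%, 47.3% and 47.4% in Cul5 cKO. For both the exact permutation p was 0.1, the smallest possible, and 0.75 after Benjamini-Hochberg adjustment over the 30 transcripts. As a share of estimated counts, Pias1-201 overlapped between the genotypes, while Ptpn1-201, Ptpn22-204 and Ptprc-204 did not, 3 of the 30 beside 11.3% of all such transcripts. The coding transcript Ptpn22-201 held 50.4 ± 16.9% of Ptpn22 TPM in WT and 63.8 ± 6.43% in Cul5 cKO, with the lowest share, 31.1%, in WT replicate 3. The transcript Ptpn6-210 held 30.7% of Ptpn6 TPM in WT replicate 3, from 191 estimated counts, and was at 0 in the other 5 libraries.

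CD45 exists in forms that differ by the variable exons 4, 5 and 6, which encode the A, B and C stretches of its outer part, and activated and memory T cells are known to turn to the short form without them. The junction after exon 3 tells the transcripts apart, so 20 bases on either side are shown for 4 of them, from 5′ to 3′ on the minus strand of chromosome 1 (GRCm38). Lower case is the end of exon 3 (chr1:138126303-138126326) and capitals are the start of the next exon used.
Ptprc-203, exon 3 to 7: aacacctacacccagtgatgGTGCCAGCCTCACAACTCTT
Ptprc-204, exon 3 to 8: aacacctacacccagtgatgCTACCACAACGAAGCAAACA
Ptprc-213, exon 3 to 5: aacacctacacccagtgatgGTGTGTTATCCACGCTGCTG
Ptprc-207, exon 3 to 4: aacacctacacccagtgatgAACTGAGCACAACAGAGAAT
Exon 4 has 129 bases, exon 5 has 147 and exon 6 has 141. Ptprc-203, which lacks all 3 variable exons, held 55.9%, 46.1% and 35.0% of Ptprc TPM in WT and 60.1%, 54.1% and 57.5% in Cul5 cKO. It was the largest single transcript of Ptprc in every sample, and the genotypes overlapped through WT replicate 1 (exact permutation p = 0.2). Ptprc-204, which lacks exon 7 as well, held 23.1%, 22.9% and 25.9% in WT and 20.7%, 21.6% and 23.1% in Cul5 cKO (exact permutation p = 0.2). As a share of estimated counts it held 26.3%, 28.9% and 35.6% in WT and 23.5%, 25.4% and 25.5% in Cul5 cKO, without overlap. Ptprc-213, an annotated fragment of 702 bases with exon 5, held 6.03%, 10.96% and 18.7% in WT and 7.38%, 10.8% and 6.26% in Cul5 cKO. Ptprc-207, with exons 4, 5 and 6, held between 1.40% and 2.33% in WT and between 0.515% and 3.72% in Cul5 cKO, and Ptprc-212, a fragment of 415 bases with exon 4, held 1.70% to 6.26% across the samples. The 2 transcripts without variable exons were the most abundant in every sample of both genotypes, and the shares in WT replicate 3, the shallowest library, were the lowest for Ptprc-203 and the highest for Ptprc-204 and Ptprc-213.

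**Figure D5:**
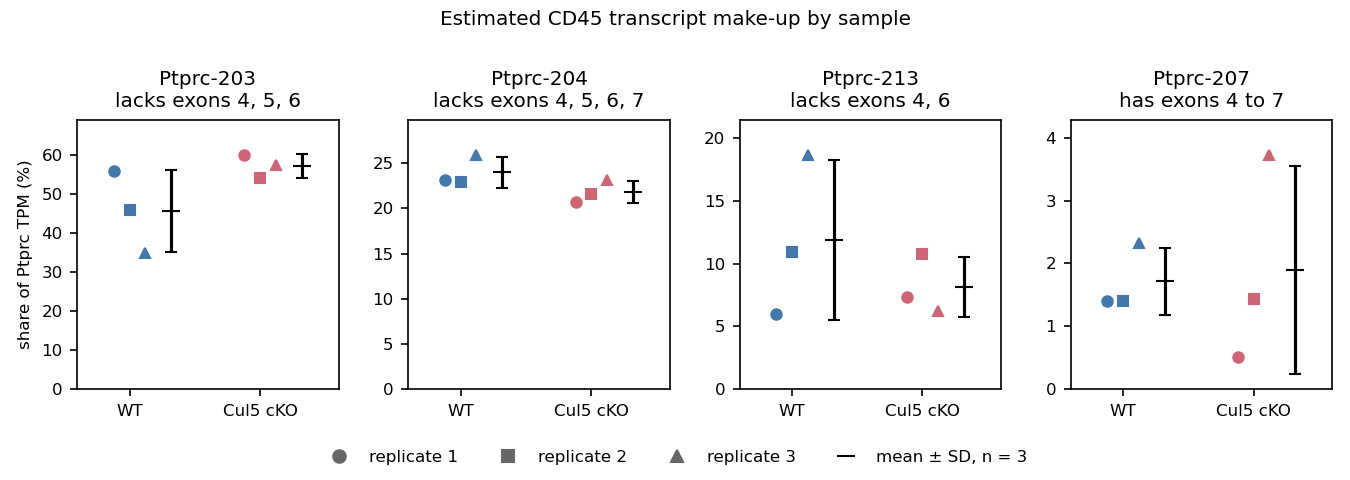
The vertical axes, which start at 0 and differ between panels, give the share of Ptprc TPM held by 4 transcripts, with 1 point for each sample and the mean ± SD of 3. Ptprc-203, without exons 4, 5 and 6, holds 35.0% to 60.1% across samples and Ptprc-207, with all of them, at most 3.72%.

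Promoter windows of 300 bases from RefSeq (GRCm38.p6) were available for 7 members, in 10 windows, and were searched on both strands for the palindromes TTCNNNGAA, the form that most STAT factors bind, and TTCNNNNGAA, the form that STAT6 prefers. The searched forms differ by 1 base in the spacer. A match to TTCNNNGAA was present in 1 of the 10 windows, that of the second Ptpn22 start (chr3:103860027-103860326), as TTCTGGGAA at chr3:103860045-103860053 (position -232 from the start site). No member's window held TTCNNNNGAA. Of all 32851 windows of this length, 8.30% held the former and 6.95% the latter. A match is a string of letters and not a bound site.

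The neighbours of these brakes in the pathway were read from the same fit, in lists drawn up with earlier results known, and each list's counts are given with the genes that were called and up to 2 with the smallest unadjusted p. Several genes without a call there were called by DESeq2, in replicates 2 and 3 alone or with replicate 1 as a term, settings that called more of all genes (6.09%, 8.83% and 13.1%), and these calls are given beside them. The last 2 settings rest on a split of replicates seen in these same data. Of the 4 JAK kinases tested none was called in the fit of all 6 samples. Jak3, the kinase of the common gamma chain and a substrate of TC-PTP, had a log2 fold change of 0.26 (edgeR adjusted p = 0.0937), and Jak1, its partner, one of -0.25 (edgeR adjusted p = 0.124). Jak3 was called by DESeq2 (adjusted p = 0.00916) and with the term (edgeR adjusted p = 0.0279), and Jak1 in replicates 2 and 3 alone (0.0392) and with the term (0.0489). None of 7 STAT factors was called, with Stat4 at -0.86 (edgeR adjusted p = 0.0862). Stat4 was called by DESeq2 (adjusted p = 0.000894), in replicates 2 and 3 alone (edgeR adjusted p = 0.0349) and with the term (0.00638). Of the 7 CIS and SOCS genes tested none was called. On the higher side were 5, beside 6310 of all 12925 genes tested. Their median log2 fold change was 0.12, beside -0.01 over all genes. Socs1 was at 0.23 (edgeR adjusted p = 0.123) and Socs2 at 0.34 (edgeR adjusted p = 0.162). Socs7 did not pass the filter on low counts, with 46.6 CPM in WT replicate 3 and at most 1.09 CPM in any other sample. Socs1 was called by DESeq2 (adjusted p = 0.0386) and with the term (edgeR adjusted p = 0.0314), and Socs2 in replicates 2 and 3 alone (0.0169) and with the term (0.0175). None of 7 IL-4 and common gamma chain receptors was called, with Il9r at -1.55 (edgeR adjusted p = 0.0852) and Il2ra at 0.19 (edgeR adjusted p = 0.257). Il9r was called by DESeq2 (adjusted p = 0.00559) and with the term (edgeR adjusted p = 0.0143). Il4ra, named after its values were seen, was called with the term (log2 fold change -0.26, edgeR adjusted p = 0.0397).

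Among the other classical phosphatases 1 gene was called. Ptprj, which encodes the receptor phosphatase CD148, was at 86.0, 89.7 and 92.1 CPM in WT and at 112, 116 and 116 CPM in Cul5 cKO. It rose with a log2 fold change of 0.36 (SE 0.06, edgeR adjusted p = 0.0445), and the call held without WT replicate 1 but was lost without any 1 of the other 5 samples (adjusted p up to 0.186). It was the only one called of the 7 other receptor-type phosphatases tested. Ptprf was at 0.58 (edgeR adjusted p = 0.295) and Ptprs at -0.23 (edgeR adjusted p = 0.428), and Ptprs was called in replicates 2 and 3 alone (edgeR adjusted p = 0.0369). None of 10 other non-receptor phosphatases was called, with Ptpn7 at 0.15 (edgeR adjusted p = 0.35) and Ptpn21 at -0.33 (edgeR adjusted p = 0.395). Of 19 genes of the SUMO pathway, in which the PIAS proteins are the last step, none was called. Senp7, a SUMO protease, was at -0.46 (edgeR adjusted p = 0.0928), and it was called by DESeq2 (adjusted p = 0.0256) and with the term (edgeR adjusted p = 0.0233).

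Of 8 receptors whose ITIM or ITSM motifs recruit SHP phosphatases, 1 was called. Lair1, an inhibitory collagen receptor that recruits SHP-1 and SHP-2, was at 51.3, 44.3 and 42.5 CPM in WT and at 85.4, 80.4 and 95.9 CPM in Cul5 cKO. It rose with a log2 fold change of 0.91 (SE 0.10, edgeR adjusted p = 0.0159), and the call was lost when replicate 2 of WT was left out (adjusted p = 0.0885), replicate 3 of WT (0.0816) or replicate 3 of Cul5 cKO (0.0801). Ptpn6 and Ptpn11 themselves overlapped between the genotypes. Sit1 was at -0.57 (edgeR adjusted p = 0.0701) and Ceacam1 at -0.67 (edgeR adjusted p = 0.168), and Sit1 was called by DESeq2 (adjusted p = 0.00859), in replicates 2 and 3 alone (edgeR adjusted p = 0.0336) and with the term (0.00754). None of 12 partners and substrates of CD45, SHP-2 and PEP was called, with Lgals1, a galectin that binds CD45, at 0.59 (edgeR adjusted p = 0.142) and Gab2, an adaptor of SHP-2, at 1.08 (edgeR adjusted p = 0.189). Lgals1 was called by DESeq2 (adjusted p = 0.0154), in replicates 2 and 3 alone (edgeR adjusted p = 0.0179) and with the term (0.00457), and Pag1, named after its values were seen, in replicates 2 and 3 alone (0.0446). Among the 7 CD4 T cell markers Cd28, the costimulatory receptor whose signal SHP-2 can reduce, fell from 88.2, 120 and 125 CPM in WT to 46.4, 56.3 and 45.0 CPM in Cul5 cKO (log2 fold change -1.17, SE 0.15, edgeR adjusted p = 0.0205). The call held without WT replicate 1 or Cul5 cKO replicate 2 and was lost without any 1 of the other 4 samples (adjusted p of 0.051 to 0.136). Over all these fits the log2 fold change of Cd28 was -1.31 to -1.08. Cd3e and Cd3g were at -0.34 (edgeR adjusted p = 0.0987) and -0.35 (edgeR adjusted p = 0.112). Cd3e was called by DESeq2 (adjusted p = 0.017), in replicates 2 and 3 alone (edgeR adjusted p = 0.0241) and with the term (0.0327), and Cd3g by DESeq2 (0.0451) and with the term (0.0267). Lat, named after its values were seen, was called with the term (log2 fold change 0.23, edgeR adjusted p = 0.0373).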

How the data were processed

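Poly-A RNA of 3 WT and 3 Cul5 cKO samples was sequenced with single-end reads of 50 bases. The authors assigned reads to GRCm38 transcripts with kallisto 0.46.2, a pseudoaligner that divides reads between matching transcripts, and deposited estimated counts, not normalized, and TPM, scaled to transcript length, for 119414 transcripts. They also deposited a gene-level table of log2 CPM, normalized with edgeR 3.34.0 (TMM), beside each gene's log2 fold change and p-value, which the authors computed as their own comparison and which were not used.

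Estimated counts were summed by gene with GENCODE vM21, which matched 97.7% of transcripts, and rounded. The transcripts left out held 0.958% to 1.04% of a library. Depth was 3944803 to 23454552 counts, and the floor of 3 counts covers counting error only, while the intervals of log2 fold changes rest on the spread between samples. edgeR 4.0.16 (filterByExpr defaults, TMM, quasi-likelihood test) was run in R 4.3.3 on 12925 genes with Benjamini-Hochberg adjustment, and a gene was called at an adjusted p under 0.05. The coefficient of variation between replicates, from edgeR's common dispersion, was 16.1%. Replicates were compared for duplicated libraries and differed by 8.57 to 29.8 chi-square units per gene. The edgeR script was tested on simulated data.

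The alternatives were DESeq2 1.42.0, limma 3.58.1 on the gene-level table or on log2 TPM with pseudocounts of 1 and 0.1, other scalings and filters, thinned libraries, replicate terms and samples left out. The members and lists were chosen with earlier results of these data known. All 10 members and Cul5 are named, and of other lists the called genes and the 2 with the smallest unadjusted p, of which some are not reported here. The paralog ratios were added after the values had been seen. Near-identical transcripts were sought with blastn 2.17.0. Promoters came from RefSeq, and those of Ptpn2, Pias2 and Pias4 were not analysed here.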

Additional observations from a re-analysis of the deposited data

How the results depend on the processing

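No member was called with all 6 samples in edgeR, and each sample left out in turn also gave 0 members called, while the genes called ranged from 2 (without WT replicate 2 or without WT replicate 3) to 316 (without WT replicate 1), against 133. Genes called were 753 by DESeq2, 228 with no filter beyond 1 count, 60 with counts scaled from TPM, 42 by limma on the gene-level table, 27 and 30 by limma on log2(TPM + 1) and log2(TPM + 0.1), 1153 in replicates 2 and 3 alone, 1688 with replicate 1 as a term and 2355 at an unadjusted p under 0.05 of an ordinary per-gene test, the study's criterion (18.2% of genes). Members called were 2 by DESeq2 (Ptpn22 at -0.34, Pias1 at -0.34), 1 in replicates 2 and 3 alone (Ptpn22 at -0.46), 3 with replicate 1 as a term (Ptpn22 at -0.35, Ptprc at -0.18, Pias1 at -0.35) and 5 by the study's criterion, Ptpn1, Ptpn2, Ptpn22, Pias1 and Pias4. That criterion was applied here to log2 CPM of the summed counts. It was not applied to the deposited gene-level values, where the groups of Ptpn1 and Pias4 overlapped. With the replicate number as a block, 848 genes (6.56%) and 1 member (Pias1, -0.34, adjusted p = 0.0325) were called. Samples of the same number correlated at 0.29, 0.17 and 0.02 in their deviations from the group means. Replicates 1 and 2 of both genotypes correlated best with their own number, and replicate 3 of either genotype did not. The labels state no pairing, so whether the numbers pair the samples cannot be told.

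The direction was kept under every alternative for Cul5 (-2.48 to -1.95), Ptpn1 (-0.18 to -0.09), Ptpn2 (0.12 to 0.24), Ptpn22 (-0.57 to -0.30), Ptprc (-0.34 to -0.01) and Pias1 (-0.47 to -0.29). Ptpn6, Ptpn11, Pias2, Pias3 and Pias4 changed sign under at least 1 alternative, and the cause was not tested. Their estimates with all 6 samples in edgeR were -0.01, 0.01, -0.01, -0.21 and 0.10. Ptpn6 was at 0.0020 by DESeq2, 0.0068 without the filter, 0.032 with counts scaled from TPM and 0.035 in replicates 2 and 3 alone. Pias2 was at 0.00023, 0.0046 and 0.032 under the first 3 of these and 0.0055 in the gene-level table. Ptpn11 was at -0.037 by library size alone, -0.00031 in the gene-level table, -0.020 by limma with either pseudocount, -0.012 in replicates 2 and 3 alone and -0.094 in thinned libraries. Pias4 was at -0.0016 with counts scaled from TPM, -0.033 in the gene-level table, -0.052 and -0.053 by limma with a pseudocount of 1 and of 0.1 and -0.021 in thinned libraries. With samples left out, Ptpn6 ranged from -0.11 to 0.13, Ptpn11 from -0.035 to 0.047, Pias2 from -0.081 to 0.047 and Pias3 from -0.43 to 0.0019. Transcripts whose groups did not overlap numbered 1 (Pias1-201) at a minimum mean share of 10%, where 11.5% of all such transcripts did not overlap, and 3 by counts, against 2. Depth limits WT replicate 3 most, where Pias3 had 70 counts. That library differed in more than its depth. It held Ptpn6-210 at 191 estimated counts and Socs7 at 46.6 CPM, against 0 counts and at most 1.09 CPM in the other libraries. The reason was not tested.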
